A study of Mus musculus with 10 samples.

Results

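The genes described here encode the proteasome, its regulatory caps and its activators, measured by RNA-seq in mouse livers after 16 weeks of high-fat diet. Members are all rows of the deposited table whose KEGG annotation names the proteasome pathway, which gave 46 of 31218 genes. By symbol they fall into 8 alpha subunits (Psma), 8 beta subunits (Psmb), 3 immunoproteasome beta subunits (Psmb8, Psmb9, Psmb10), 6 ATPases (Psmc), 11 other regulatory subunits (Psmd), 5 activator genes (Psme) and 5 others (Pomp, Adrm1, Sem1, Psmf1 and Ifng). The study compared 5 livers of floxed littermates, labelled Me1 flox/flox and called Flox here, with 5 livers of hepatocyte-specific Me1 knockout mice, called HKO here, whose genotype is labelled Me1 Alb/Alb. Me1 is the cytosolic malic enzyme, which makes NADPH from malate. Both groups had the same diet, and the labels give no sex, age, strain or batch, and do not describe the Cre transgene. Each liver is a sample of its own, and the labels do not pair mice across groups or say that each liver is from another mouse.

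The proteasome is a barrel of stacked rings that degrades proteins tagged with ubiquitin. Alpha subunits form the outer rings and gate the entry, while beta subunits form the inner rings, in which Psmb5, Psmb6 and Psmb7 carry the cutting sites. A regulatory cap of Psmc ATPases and Psmd subunits binds ubiquitin chains, removes them and unfolds the substrate, and Psme activators open the barrel without ubiquitin. Interferon gamma induces Psmb8, Psmb9 and Psmb10, which replace Psmb5, Psmb6 and Psmb7 and favour peptides for MHC class I. NFE2L1, a transcription factor released from the endoplasmic reticulum, is known to raise proteasome genes together when the proteasome is inhibited.

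Promoter sequences are shown for Psma5 and Psmd4, which had the largest falls among the members that passed the test. Sequences are also shown for Adrm1, a ubiquitin receptor gene with a p-value among the smallest, and Psmd8, a regulatory subunit that did not pass. Each is the stretch of 250 bases before the gene's start in RefSeq (GRCm38.p6), 5′ to 3′ on the gene's strand. Capitals mark matches, on either strand, to CCGGAA (the core bound by ETS factors), CCAAT (bound by NF-Y) or TGACNNNGC (the core of the antioxidant response element), and matches may share bases. The windows are chr3:108256676-108256925 on the plus strand for Psma5, chr3:95042615-95042864 on the minus strand for Psmd4, chr2:180171338-180171587 on the plus strand for Adrm1 and chr7:29180674-29180923 on the minus strand for Psmd8. The RefSeq start of Adrm1 lies 103 bases from the start in the deposited table.
Psma5: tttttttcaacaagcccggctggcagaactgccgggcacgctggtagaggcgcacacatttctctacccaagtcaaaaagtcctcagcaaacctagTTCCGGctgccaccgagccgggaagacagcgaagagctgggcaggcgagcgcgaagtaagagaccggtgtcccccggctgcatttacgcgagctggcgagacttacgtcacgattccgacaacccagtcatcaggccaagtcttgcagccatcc
Psmd4: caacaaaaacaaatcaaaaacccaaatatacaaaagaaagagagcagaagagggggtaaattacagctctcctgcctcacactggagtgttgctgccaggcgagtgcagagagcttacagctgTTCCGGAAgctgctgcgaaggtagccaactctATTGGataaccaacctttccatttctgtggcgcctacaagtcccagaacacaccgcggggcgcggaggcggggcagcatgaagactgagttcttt
Adrm1: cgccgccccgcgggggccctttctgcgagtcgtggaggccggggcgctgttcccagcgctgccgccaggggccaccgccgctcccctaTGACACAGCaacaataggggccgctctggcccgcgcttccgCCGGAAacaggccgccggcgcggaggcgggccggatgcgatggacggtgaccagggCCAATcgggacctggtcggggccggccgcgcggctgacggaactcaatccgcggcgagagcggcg
Psmd8: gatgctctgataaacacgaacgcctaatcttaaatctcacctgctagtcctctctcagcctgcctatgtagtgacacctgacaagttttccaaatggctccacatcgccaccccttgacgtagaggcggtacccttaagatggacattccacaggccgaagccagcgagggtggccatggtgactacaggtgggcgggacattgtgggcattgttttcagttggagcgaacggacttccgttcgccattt

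Psmd4 holds overlapping CCGGAA matches on both strands, and Psmd8 holds none of the 3 motifs. Windows of 39 members were in the RefSeq table, and those of Psmb1, Psmb2, Psmb7, Psma8, Psmc3, Psmd3 and Psmd7 were not in it. CCGGAA was found in 17 of the 39 (43.6%), against 13.6% of the 27025 genes with a window. A gene counted when any of its windows held the motif. These 27025 genes were not matched to the members in level, and many may not be expressed in liver. The motif was in 12 of 24 members that were lower in HKO and in 5 of 15 other members, which include the untested Psmb11 and Ifng. In the same sets CCAAT was in 11 of 24 and 3 of 15, and TGACNNNGC in 4 of 24 and 1 of 15. These splits were not tested. The shares of the other motifs were nearer to those of all genes: CCAAT was in 35.9% of members and 37.5% of all genes and TGACNNNGC in 12.8% and 11.5%. TTCNNNGAA, the core of the interferon gamma activated site, was in 5.13% of members (Psmb8 and Ifng) and in 8.13% of all genes. These matches are letters in a window and not measured binding.

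Library totals were 52790000 to 60765120 counts per liver. Me1 was 228, 160, 164, 145 and 163 CPM (counts scaled to library size) in the Flox livers and 21.5, 22.2, 20.5, 21.4 and 26.9 CPM in the HKO livers (log2 fold change -2.93, SE 0.13, edgeR adjusted p = 8.48e-07), so every label matched its Me1 level. HKO 4 and HKO 5 stood apart: their summed epidermis markers were 114 and 124 CPM and their summed skeletal muscle markers 152 and 172 CPM, against at most 5.23 and 7.1 CPM in the other livers. The 10 hepatocyte markers were all detected, with summed levels of 115000 to 131000 CPM in Flox and 81800 to 101000 CPM in HKO. The TMM factors, which scale each library to the bulk of its genes, were 0.896 to 0.965 in Flox and 0.998 to 1.16 in HKO. The 200 most abundant genes took 51.7 to 54.4% of counts in Flox and 47.7 to 50.8% in HKO.

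Most proteasome genes were lower in HKO livers relative to the bulk of genes. Of the 44 members tested, 29 fell, 0 rose and 15 did not pass the threshold of an adjusted p of 0.05 (edgeR with TMM factors). Among all 18065 tested genes 6.4% were called lower and 4.86% higher, and among the 5457 tested genes at the mean levels of the called members 12.5% were lower. No member had an unadjusted p under 0.05 in the direction of a rise, and DESeq2 called 0 higher. The 29 falls ran from 15.0% to 33.1%, with a median of 21.4%. The median log2 fold change of the 44 members was -0.33, against 0.02 for all tested genes, and 42 of the 44 were negative. In 28 of the 29 the highest HKO liver was below the lowest Flox liver in CPM with TMM factors, an order seen in 6.48% of tested genes; the opposite order was seen in 0 members and in 4.41% of tested genes. In these whole-liver samples fewer hepatocytes and less RNA per hepatocyte cannot be told apart. Of 10 hepatocyte markers 4 fell (edgeR), all 10 had a negative log2 fold change, and their median was -0.40 on the log2 scale. Of the markers of other liver cells, 4 of 12 for macrophages, 3 of 8 for stellate cells and 3 of 6 tested for cholangiocytes rose (edgeR), and 2, 1 and 1 did so without HKO 4 and HKO 5. Of 10 markers of T and NK cells 1 fell and 0 rose (edgeR), with a median of -0.55 on the log2 scale. Of 7 markers of B and plasma cells and 5 of neutrophils 0 passed, and 1 of 7 for dendritic cells and 1 of 8 for sinusoidal endothelial cells rose (edgeR). Their summed levels were 217 to 431 CPM in Flox and 322 to 409 in HKO for macrophages, 171 to 342 and 296 to 435 for stellate cells, and 48.1 to 71.1 and 79.1 to 123 for cholangiocytes. None of these markers was at 0 counts in all livers. The part of these shifts in the falls was not tested.

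This result depended on how the libraries were scaled. With total counts alone, the all-gene median on the log2 scale moved from 0.02 to 0.25 and that of the members from -0.33 to -0.09. In that fit 2 members were lower (Psma5 and Psmd4) and 1 was higher (Psmd8), where 2.13% of all tested genes were lower and 20.1% higher (edgeR). On deposited FPKM values, which also carry no TMM factor, the same members were called by limma on log2(FPKM + 0.5), with 2.09% of genes lower and 18.1% higher. Only 1 of the 29, Psmd4, then had every HKO liver below every Flox liver, an order seen in 1.64% of genes. The distance of the members' median below that of all genes stayed between -0.21 and -0.37 on the log2 scale in every setting run. The falls are thus measured relative to other genes. The summed members took 3070 ± 87.8 CPM of all counts, without TMM factors, in Flox and 2939 ± 194 in HKO (SD, n = 5 each).

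**Figure D1:**
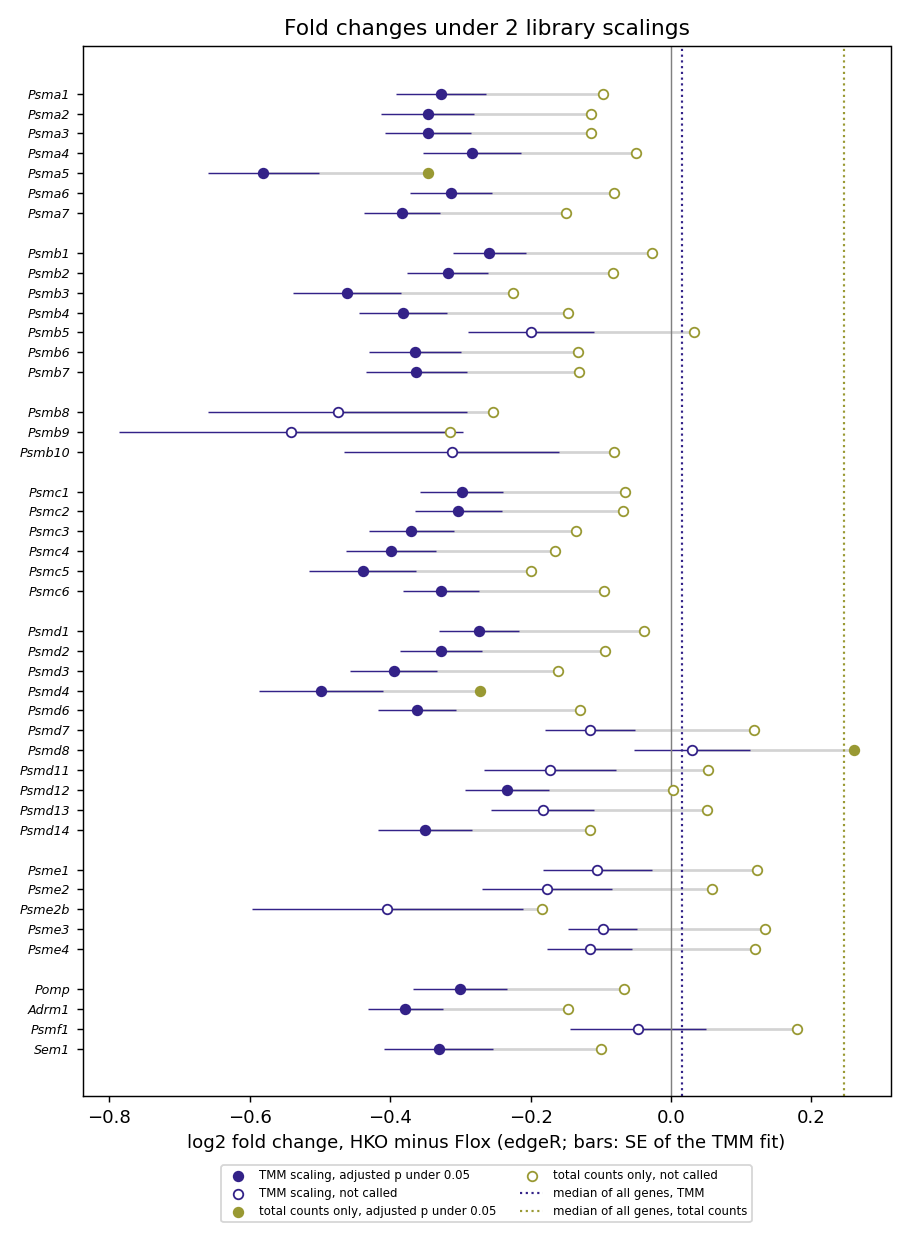
Log2 fold change, HKO minus Flox, of each tested member except Psma8 under edgeR with TMM factors (dark, bars give the SE) and with total counts only (light). Filled points had an adjusted p under 0.05: 29 lower with TMM factors, against 2 lower and 1 higher with total counts; dotted lines are the medians of all tested genes at 0.02 and 0.25, and most members lie left of their own line.

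The median member, as a percent of its Flox mean in CPM, was 99.7, 98.2, 95.3, 106 and 99.4 in Flox 1 to Flox 5 and 78.4, 81.4, 79.2, 79.4 and 80.9 in HKO 1 to HKO 5. The HKO livers lay within 3 percent points of each other and below every Flox liver. In FPKM the same medians were 96.7 to 104 in Flox and 84.5, 91.8, 92.2, 98.2 and 99.6 in HKO, so that HKO 1 to HKO 3 lay below every Flox liver and HKO 4 and HKO 5 among them. HKO 4 and HKO 5 were the libraries with foreign-tissue markers and the highest TMM factors. Without these livers 25 members were lower and 0 higher with TMM factors (edgeR, 2.91% of all genes lower and 2.45% higher), and all 25 were among the 29. With total counts and without them 3 were lower, Psma5, Psmc5 and Psmd3, where 1.45% of all genes were lower and 7.66% higher (edgeR). The median coefficient of variation of members was 6.75% in Flox and 5.84% in HKO, against 19.4% and 16.8% for all tested genes. The tested genes were not matched to the members in level, and the part of level in this difference was not tested.

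**Figure D2:**
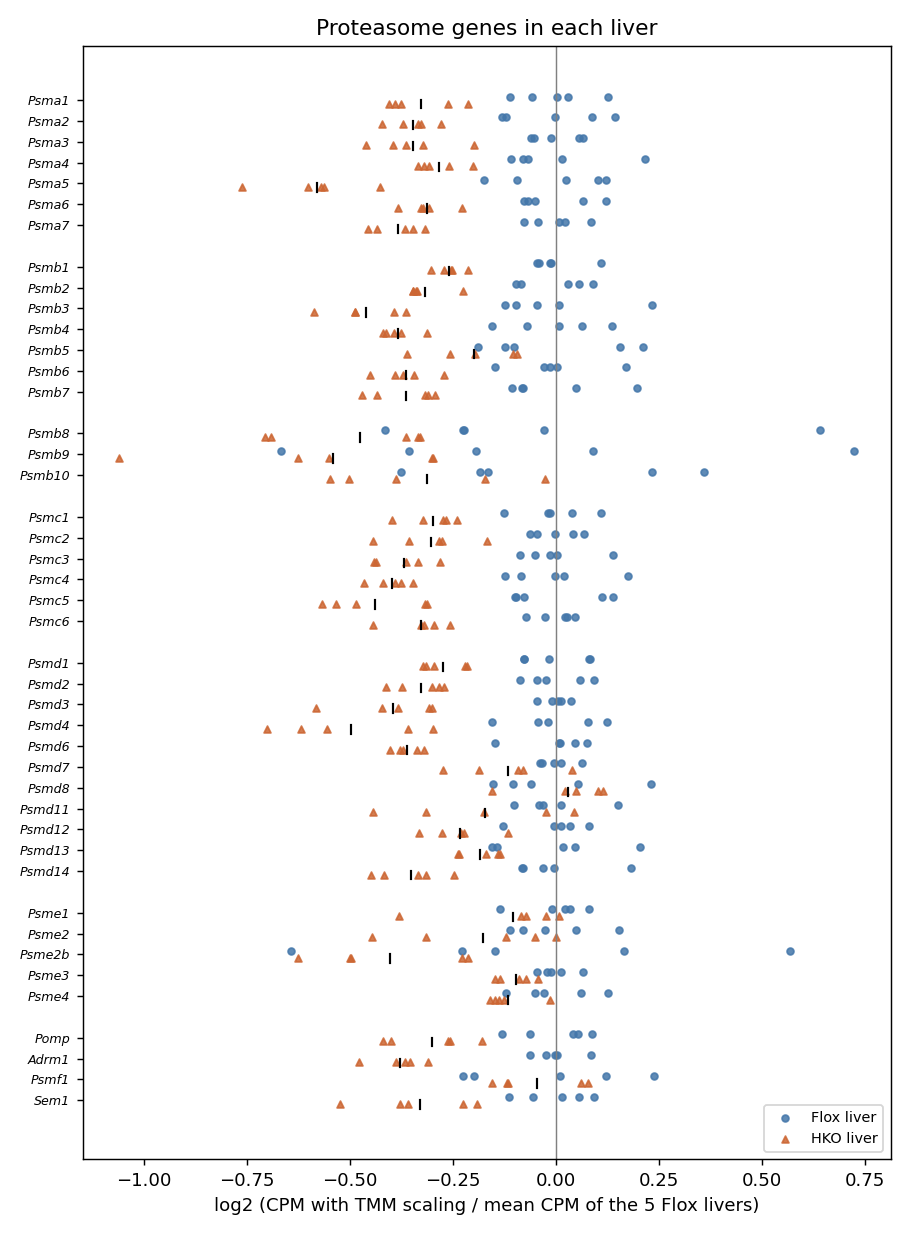
CPM with TMM factors of each tested member except Psma8 in every liver. Values are log2 over the mean of the 5 Flox livers (0 on the axis). Circles are Flox, triangles are HKO and black ticks mark the log2 of the HKO mean over the Flox mean. In 28 members all triangles lie left of all circles. The groups overlap in Psmb5, Psmd7, Psmd8, Psmd11, Psmd12, Psmd13, Psmf1, the activators and the immunoproteasome genes.

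Levels per gene length spanned a wide range within the barrel. In the alpha ring FPKM in Flox ran from 64.2 ± 3.44 for Psma6 down to 12.9 ± 0.34 for Psma3, with Psma8, a testis form, at 0.292 ± 0.155 (SD, n = 5). In that order Psma4 (34.3 ± 3.23) and Psma5 (28.5 ± 2.64) followed Psma6, Psma1 (20.9 ± 0.923) and Psma7 (20.7 ± 0.832) differed by less than their spread, and Psma2 (13.5 ± 0.847) and Psma3 came last. In the beta ring Psmb5 was highest at 53.7 ± 5.73 FPKM and Psmb1 lowest of the liver forms at 17.4 ± 0.678. Psmb11, a thymus form, had 4 counts in each of 3 livers and 0 in the other 7, and was not tested. Among the ATPases Psmc1 was highest at 49.2 ± 2.19 FPKM and Psmc2 lowest at 13.0 ± 0.676. The Psmd genes ran from 42.2 ± 2.97 FPKM for Psmd4 to 12.9 ± 0.827 for Psmd11. The immunoproteasome genes lay below all other Psma and Psmb genes of the liver, at 8.71 ± 2.04 FPKM for Psmb10, 5.22 ± 1.84 for Psmb8 and 4.33 ± 1.85 for Psmb9. The activators ran from 24.9 ± 1.92 FPKM for Psme1 to 10.9 ± 0.608 for Psme4, and the others from 17.0 ± 0.741 for Adrm1 to 3.92 ± 0.571 for Psmf1. Ifng, which encodes interferon gamma, had at most 9 counts in a liver and was not tested.

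**Figure D3:**
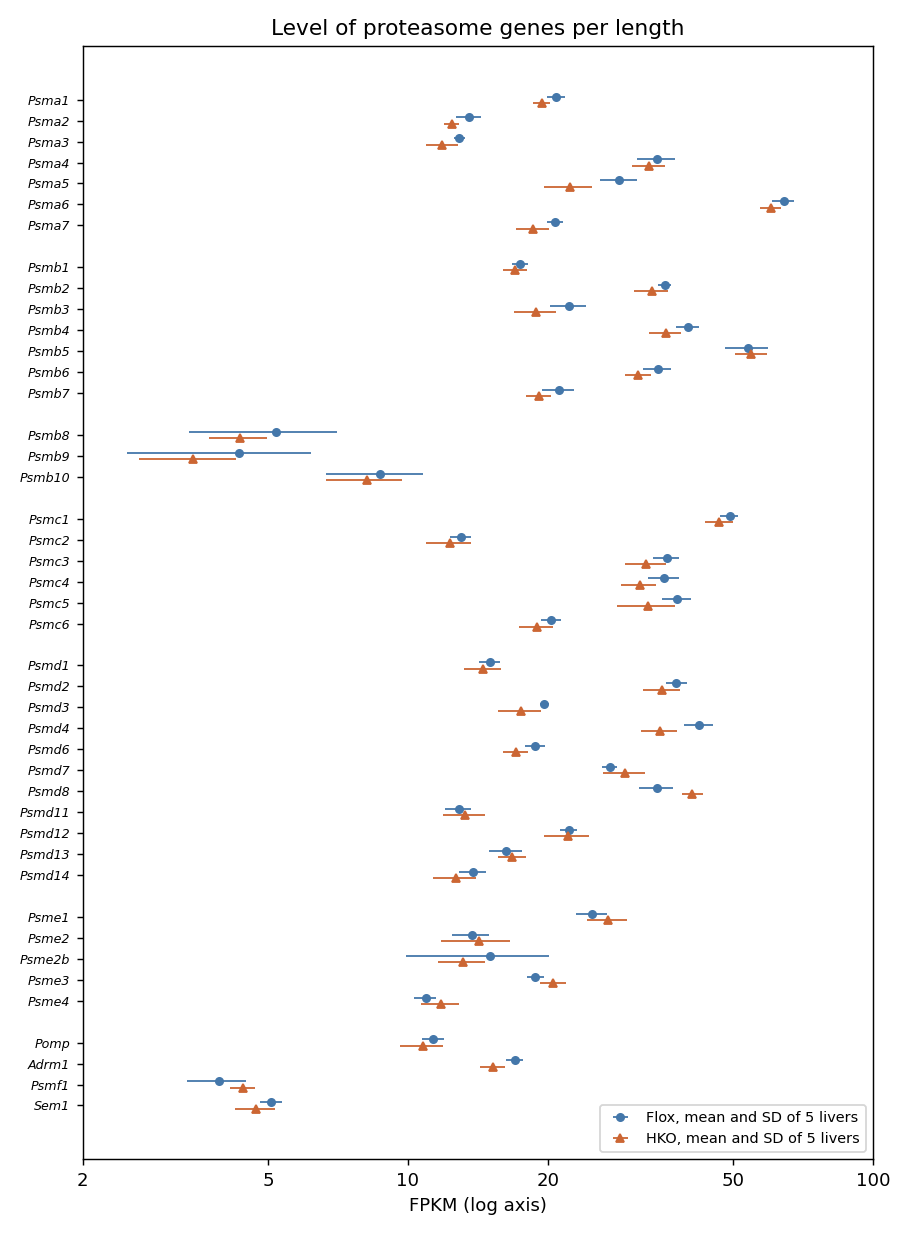
FPKM (log axis) of each tested member except Psma8, as mean and SD of the 5 Flox livers (circles) and the 5 HKO livers (triangles), without TMM factors. Psma6 is highest at 64.2 FPKM in Flox, and the immunoproteasome genes, Psmf1 and Sem1 are at the low end.

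In the alpha ring 7 of 8 genes fell, and the eighth, Psma8, was near the floor of detection. Psma5 (chromosome 3, 108256926 to 108279974, plus strand) showed the largest fall of any member. Its CPM was 43.2, 50.2, 40.9, 49.5 and 46.9 in Flox and 30.4, 31.2, 27.2, 31.1 and 34.3 in HKO, so the groups did not overlap. The log2 fold change was -0.58 (SE 0.08, edgeR adjusted p = 0.0013), a fall of 33.1%, and it was -0.35 with total counts only (edgeR adjusted p = 0.0247). A pseudogene row, Psma5-ps, had 107 to 204 counts per liver, so reads shared between these copies may have been split in the authors' counting. Psma7 was at 79.3, 78.5, 74.0, 82.9 and 75.8 CPM in Flox and 56.9, 60.6, 61.5, 57.8 and 62.7 CPM in HKO. Its groups were separate too (log2 fold change -0.38, SE 0.05, edgeR adjusted p = 0.00159).

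Psma3 and Psma6 also fell. Psma3 had 61.2, 59.4, 59.2, 64.5 and 64.0 CPM in Flox and 47.9, 53.7, 44.8, 49.3 and 46.9 in HKO (log2 fold change -0.35, SE 0.06, edgeR adjusted p = 0.00511). For Psma6 the values were 92.7, 92.0, 93.8, 106 and 102 CPM in Flox and 77.6, 83.0, 77.4, 74.4 and 78.4 in HKO (log2 fold change -0.31, SE 0.06, edgeR adjusted p = 0.007). Neither gene's groups overlapped. Psma2, Psma1 and Psma4 fell by 21.4%, 20.3% and 17.9% (edgeR adjusted p = 0.00731, 0.00788 and 0.0235). Psma1 and Psma4 no longer passed when HKO 4 and HKO 5 were left out (adjusted p by edgeR of 0.0558 and 0.0786).

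In the beta ring 6 of 7 tested genes fell, with a median of -0.36 on the log2 scale, and the exception was a catalytic subunit. Psmb4, a structural subunit, had 96.2, 91.0, 85.8, 105 and 99.9 CPM in Flox and 71.8, 73.7, 71.5, 72.8 and 77.0 in HKO. Its log2 fold change was -0.38 (SE 0.06, edgeR adjusted p = 0.00381). Psmb3, also structural, was at 62.9, 57.5, 58.6, 73.6 and 60.6 CPM in Flox and 41.7, 47.7, 44.7, 44.7 and 48.7 in HKO. It changed most in this ring (log2 fold change -0.46, SE 0.08, edgeR adjusted p = 0.00387), and in neither gene did the groups overlap. Psmb2 had 53.8, 49.2, 49.7, 54.7 and 56.0 CPM in Flox and 41.4, 41.4, 41.7, 41.6 and 45.1 in HKO, with separate groups (log2 fold change -0.32, SE 0.06, edgeR adjusted p = 0.00577). Psmb1 fell by 16.4% (edgeR adjusted p = 0.00877), at an adjusted p of 0.0517 without HKO 4 and HKO 5 (edgeR).

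Of the 3 catalytic subunits, Psmb6 and Psmb7 passed the threshold and Psmb5 did not. Psmb6, the caspase-like subunit, had 77.5, 78.4, 71.5, 89.0 and 79.3 CPM in Flox and 60.4, 62.4, 65.6, 57.9 and 61.2 in HKO (log2 fold change -0.36, SE 0.07, edgeR adjusted p = 0.00571). Psmb7, the trypsin-like subunit, had 83.7, 83.8, 82.2, 102 and 91.6 CPM in Flox and 71.5, 72.3, 63.9, 65.6 and 71.1 in HKO (log2 fold change -0.36, SE 0.07, edgeR adjusted p = 0.00859). Both had all HKO livers below all Flox livers. Psmb5, the chymotrypsin-like subunit and the target of bortezomib, was at 66.1, 55.3, 52.1, 68.8 and 54.5 CPM in Flox and 49.7, 55.6, 55.2, 46.2 and 51.8 in HKO. Here 3 of the 5 HKO livers were below every Flox liver and the groups overlapped. The log2 fold change was -0.20 (SE 0.09, edgeR adjusted p = 0.177), and 0.03 with total counts only. The difference between Psmb5 and its neighbours was not tested.

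The immunoproteasome genes were not called, and Flox 3 stood above the other livers in all of them. By edgeR 0 of 3 passed, with 2 at an unadjusted p under 0.05, and DESeq2 called 0. Among all tested genes 6.4% were lower and 4.86% higher (edgeR), so 0 of 3 is near the share of all genes. Psmb8 (chromosome 17, 34197721 to 34201454, plus strand) was at 18.4, 21.1, 33.6, 16.2 and 18.4 CPM in Flox and 16.7, 13.2, 17.1, 17.1 and 13.3 in HKO. Its log2 fold change was -0.47 (SE 0.18, edgeR adjusted p = 0.124). Psmb9, which lies beside Psmb8 with a gap of 9956 bases, had 15.1, 20.6, 31.9, 16.9 and 12.2 CPM in Flox and 12.5, 9.27, 15.7, 15.7 and 13.2 in HKO (log2 fold change -0.54, SE 0.24, edgeR adjusted p = 0.182). In both genes Flox 3 was the highest liver and the groups overlapped. Psmb10, on chromosome 8, had 16.0, 16.3, 23.4, 21.4 and 14.1 CPM in Flox and 12.5, 13.9, 17.9, 16.2 and 12.9 in HKO (log2 fold change -0.31, SE 0.15, edgeR adjusted p = 0.211). Without Flox 3 the log2 fold changes of Psmb8, Psmb9 and Psmb10 were -0.26, -0.29 and -0.21, and 0 of 3 passed (edgeR adjusted p = 0.184, 0.353 and 0.405), where 5.51% of all genes were lower and 4.59% higher.

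Flox 3 also stood high in other genes of interferon signalling and antigen presentation. Irf1, a transcription factor that activates immunoproteasome genes, was at 40.9 CPM there and at 14.5 to 25.9 CPM in the other Flox livers, and Tap1, the peptide transporter, at 67.1 against 31.1 to 49.0 CPM. Of 13 tested genes of the MHC class I route and its inducers, 9 had their highest level of all livers in Flox 3, as had 8.87% of all tested genes. Flox 3 also had the highest summed T and NK cell markers, 7.52 CPM against 2.98 to 5.71 in the other livers, and the highest summed macrophage markers, 431 against 217 to 409 CPM. The part of these cells in its immunoproteasome level was not tested.

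**Figure D4:**
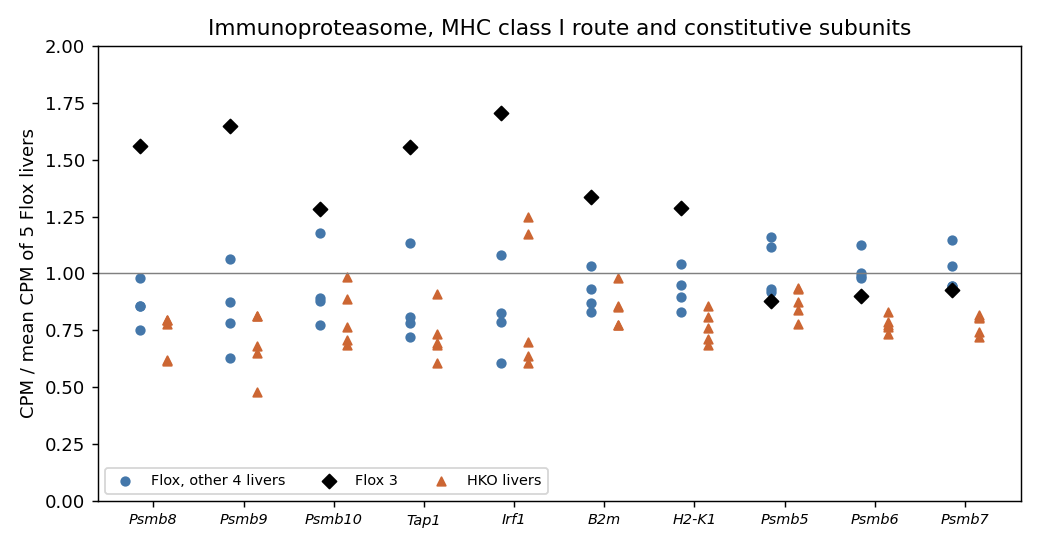
CPM with TMM factors over the mean of the 5 Flox livers, for the immunoproteasome genes, genes of the MHC class I route and the constitutive catalytic subunits; circles are Flox livers other than Flox 3, the diamond is Flox 3 and triangles are HKO. Flox 3 is the highest liver for Psmb8 (33.6 CPM), Psmb9 (31.9) and Psmb10 (23.4) but not for Psmb5, Psmb6 and Psmb7.

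Ratios within a liver do not depend on library scaling. Psmb8 as a percent of Psmb5 in FPKM was 9.96 ± 4.26 in Flox and 8.03 ± 1.47 in HKO (SD, n = 5 each). Psmb9 as a percent of Psmb6 was 12.7 ± 5.98 in Flox and 11.0 ± 2.32 in HKO. Psmb10 as a percent of Psmb7 was 41.4 ± 9.64 in Flox and 43.0 ± 9.25 in HKO. All 3 ratios overlapped between the groups, with Flox 3 highest at 17.1, 22.8 and 56.9 percent. Without Flox 3 the Flox means were 8.18, 10.2 and 37.5 percent, so that the order of the means turned for Psmb9.

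All 6 ATPase genes fell, with a median of -0.35 on the log2 scale. Psmc4 (chromosome 7, 28041707 to 28050101, minus strand) had 95.4, 93.9, 88.8, 106 and 86.5 CPM in Flox and 68.2, 71.8, 70.4, 74.0 and 72.5 in HKO. Its log2 fold change was -0.40 (SE 0.06, edgeR adjusted p = 0.00315). Psmc3 was at 108, 115, 111, 127 and 114 CPM in Flox and 85.01, 89.4, 84.7, 94.6 and 91.2 in HKO (log2 fold change -0.37, SE 0.06, edgeR adjusted p = 0.00358). In all 6 of these motor subunits the groups were separate. Psmc6 had 83.0, 88.8, 85.7, 90.1 and 88.6 CPM in Flox and 69.5, 71.1, 64.2, 73.0 and 69.9 in HKO (log2 fold change -0.33, SE 0.05, edgeR adjusted p = 0.00377). Psmc5 had 60.6, 61.5, 60.7, 71.5 and 70.1 CPM in Flox and 43.8, 44.8, 46.3, 52.2 and 52.0 in HKO (log2 fold change -0.44, SE 0.08, edgeR adjusted p = 0.00509). Psmc2 and Psmc1 fell by 18.9% and 18.7% (edgeR adjusted p = 0.0101 and 0.00869). All 6 also passed without HKO 4 and HKO 5, and none passed with total counts only.

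Among the 11 Psmd genes 7 fell and 4 did not pass. Psmd4, a ubiquitin receptor on the cap (chromosome 3, 95032694 to 95042614, minus strand), had 158, 154, 131, 141 and 143 CPM in Flox and 113, 118, 89.4, 94.8 and 98.9 in HKO. Every HKO liver lay below every Flox liver (log2 fold change -0.50, SE 0.09, edgeR adjusted p = 0.00516), and with total counts only the value was -0.27 (edgeR adjusted p = 0.0261). Psmd6, a scaffold subunit of the lid, had 68.0, 66.6, 58.3, 64.9 and 65.0 CPM in Flox and 49.6, 51.1, 49.9, 48.8 and 51.7 in HKO (log2 fold change -0.36, SE 0.06, edgeR adjusted p = 0.00247). Psmd3, also in the lid, had 121, 116, 119, 123 and 120 CPM in Flox and 89.3, 97.1, 80.0, 96.7 and 91.8 in HKO (log2 fold change -0.40, SE 0.06, edgeR adjusted p = 0.0029). Their groups did not overlap. Psmd2, the large base subunit to which shuttle factors bind, was at 176, 184, 181, 200 and 195 CPM in Flox and 141, 155, 144, 154 and 152 in HKO (log2 fold change -0.33, SE 0.06, edgeR adjusted p = 0.00523). Psmd14, the deubiquitinase of the lid, fell by 21.6%, Psmd1 by 17.3% and Psmd12 by 15.0% (edgeR adjusted p = 0.00737, 0.0114 and 0.0288). Psmd12 was the called member whose groups overlapped.

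The 4 that did not pass were Psmd7 (log2 fold change -0.12), Psmd11 (-0.17), Psmd13 (-0.18) and Psmd8. Psmd7 is the partner of Psmd14 in the lid, and Psmd11 and Psmd13 are further lid subunits. Psmd8, a lid subunit that joins late in assembly (chromosome 7, 29174188 to 29180673, minus strand), was at 151, 116, 120, 134 and 124 CPM in Flox and 140, 133, 138, 116 and 131 in HKO. The groups overlapped (log2 fold change 0.03, SE 0.08, edgeR adjusted p = 0.856), and with total counts only the log2 fold change was 0.26 (edgeR adjusted p = 0.0172). Its FPKM over the median of the other Psmd genes was 2.04, 1.61, 1.75, 1.83 and 1.71 in Flox and 2.55, 2.31, 2.52, 2.05 and 2.32 in HKO. Every HKO value was above every Flox value, though HKO 4 and Flox 1 nearly met. The mean was 1.79 ± 0.159 in Flox and 2.35 ± 0.201 in HKO (SD, n = 5 each); the ratio was chosen after the values were seen and carries no test.

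**Figure D5:**
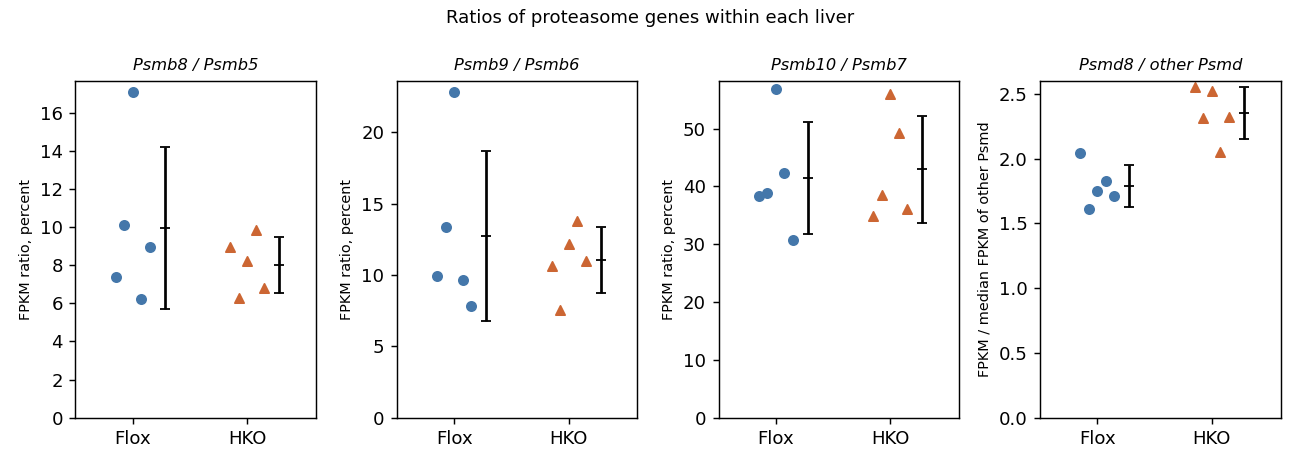
FPKM ratios within each liver, with mean and SD of the 5 Flox livers (circles) and the 5 HKO livers (triangles): each immunoproteasome gene as a percent of the constitutive subunit it replaces, and Psmd8 over the median of the other Psmd genes. The immunoproteasome ratios overlap between groups, and the Psmd8 ratio is 1.61 to 2.04 in Flox and 2.05 to 2.55 in HKO.

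The activator genes showed no call. Of 5 tested, 0 passed by edgeR, 0 had an unadjusted p under 0.05 and 0 were called by DESeq2. Among all tested genes 6.4% were lower and 4.86% higher (edgeR), so 0 of 5 is near the share of all genes. With TMM factors all 5 had a negative log2 fold change. Psme1, a subunit of the interferon-inducible activator, was at 69.0, 68.4, 71.2, 66.9 and 61.2 CPM in Flox and 64.0, 63.4, 67.7, 51.7 and 66.2 in HKO (log2 fold change -0.10, SE 0.08, edgeR adjusted p = 0.422). Its partner Psme2, a neighbour at a gap of 5912 bases on chromosome 14, had 30.7, 33.0, 28.1, 27.5 and 29.2 CPM in Flox and 23.9, 21.8, 29.7, 28.7 and 27.3 in HKO (log2 fold change -0.18, SE 0.09, edgeR adjusted p = 0.245). Both genes overlapped between the groups, and with total counts only their log2 fold changes were 0.12 and 0.06.

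Psme2b, a near-identical copy of Psme2 on chromosome 11, had 13.1, 13.8, 22.7, 17.2 and 9.81 CPM in Flox and 10.8, 13.2, 13.1, 9.93 and 10.9 in HKO (log2 fold change -0.40, SE 0.19, edgeR adjusted p = 0.203). Its values are uncertain, since reads of the 2 copies could be divided between them, and Flox 3 was highest in Psme2b but not in Psme2. Summed, the copies had 43.8, 46.8, 50.8, 44.6 and 39.0 CPM in Flox and 34.7, 35.0, 42.8, 38.6 and 38.1 in HKO, and Flox 3 was then the highest liver. Psme3, the nuclear relative of Psme1, had 67.3, 68.6, 66.9, 65.8 and 71.1 CPM in Flox and 64.6, 63.9, 61.3, 66.0 and 61.8 in HKO (log2 fold change -0.10, SE 0.05, edgeR adjusted p = 0.225). Psme4, a large nuclear activator, had 108, 110, 103, 122 and 117 CPM in Flox and 100, 101, 103, 111 and 102 in HKO (log2 fold change -0.12, SE 0.06, edgeR adjusted p = 0.247). With total counts only these were 0.13 and 0.12, so the sign of 4 of the 5 activators followed the scaling. In Psme3 and in Psme4, 4 of 5 HKO livers were below every Flox liver.

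Of the other members Adrm1, Pomp and Sem1 fell. Adrm1, a ubiquitin receptor on the cap (chromosome 2, 180171485 to 180176286, plus strand), had 92.5, 92.8, 91.1, 88.7 and 98.2 CPM in Flox and 72.5, 74.7, 66.5, 70.8 and 71.9 in HKO. Its log2 fold change was -0.38 (SE 0.05, edgeR adjusted p = 0.00158). Pomp, the chaperone that matures the barrel, had 77.1, 74.7, 66.2, 75.3 and 69.4 CPM in Flox and 54.3, 60.7, 60.5, 55.0 and 64.1 in HKO (log2 fold change -0.30, SE 0.07, edgeR adjusted p = 0.0156). In these genes, and in Sem1, the smallest cap subunit, every HKO liver lay below every Flox liver. Sem1 had 23.6, 22.3, 21.3, 23.0 and 20.4 CPM in Flox and 17.0, 19.4, 17.3, 15.4 and 18.9 in HKO (log2 fold change -0.33, SE 0.08, edgeR adjusted p = 0.0197), and did not pass without HKO 4 and HKO 5 (edgeR adjusted p = 0.0693). Psmf1, which binds the barrel and inhibits it in vitro, had 36.5, 33.7, 31.2, 27.0 and 26.5 CPM in Flox and 32.3, 28.6, 32.7, 28.5 and 27.8 in HKO, with full overlap (log2 fold change -0.05, SE 0.10, edgeR adjusted p = 0.802).

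Genes that build, feed and regulate the proteasome were counted in the same edgeR test, in which 6.4% of all genes were lower and 4.86% higher. Of 8 tested assembly chaperones 3 fell and 0 rose: Pomp, Psmd9 and Psmg2. Psmd9, a chaperone of the base, was at 34.9 to 47.3 CPM in Flox and 25.2 to 34.6 in HKO (log2 fold change -0.43, SE 0.11, edgeR adjusted p = 0.0338). Psmg2, a chaperone of the alpha ring, was at 8.77 to 10.2 CPM in Flox and 6.48 to 7.8 in HKO (log2 fold change -0.35, SE 0.09, edgeR adjusted p = 0.0348). Psmd5, another base chaperone, was at 24.8 to 30.3 CPM in Flox and 30.0 to 34.4 in HKO (log2 fold change 0.18, edgeR adjusted p = 0.111). With total counts only 0 chaperones were lower and 1, Psmd5, was higher (log2 fold change 0.41, edgeR adjusted p = 0.00919). In that fit 2.13% of all genes were lower and 20.1% higher. The chaperone median moved from -0.20 to 0.03, while that of all tested genes moved from 0.02 to 0.25. With TMM factors neither Psmd9 nor Psmg2 passed when HKO 4 and HKO 5 were left out (adjusted p by edgeR of 0.119 and 0.131).

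The list for the NFE2L1 route to proteasome genes held 11 genes, not all of which release NFE2L1. Of these genes 2 fell and 0 rose, against 6.4% of all genes lower and 4.86% higher. Their median was -0.11 on the log2 scale. With total counts only 0 were lower and 3 higher, Nfe2l1 among them, where 2.13% of all genes were lower and 20.1% higher (edgeR). The median of the route was then 0.13, against 0.25 for all tested genes. Nfe2l1 itself was at 189, 203, 179, 162 and 209 CPM in Flox and 208, 218, 211, 162 and 183 in HKO, with overlap (log2 fold change 0.06, SE 0.10, edgeR adjusted p = 0.74; log2 fold change 0.28 with total counts only). Ddi2, the protease that cleaves NFE2L1 into its active form, was at 334, 371, 343, 330 and 366 CPM in Flox and 277, 264, 258, 269 and 222 in HKO. All HKO livers were below all Flox livers (log2 fold change -0.44, SE 0.07, edgeR adjusted p = 0.00382). Ufd1, a cofactor of the Vcp segregase, fell by 14.7% (edgeR adjusted p = 0.0429), and not without HKO 4 and HKO 5 (edgeR adjusted p = 0.216). Vcp did not pass (log2 fold change -0.18, edgeR adjusted p = 0.0544). NFE2L1 protein was not measured.

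Of 17 proteasome-bound and shuttle factors 2 fell and 0 rose, against 6.4% of all genes lower, with a median of -0.11. They were Zfand2b and Rad23b (log2 fold changes -0.32 and -0.24, edgeR adjusted p = 0.02 and 0.0207). Rad23b carries ubiquitin-tagged substrates to the cap. Without HKO 4 and HKO 5 Rad23b passed and Zfand2b did not (adjusted p by edgeR of 0.0429 and 0.0868). With total counts only, 0 of the 17 were lower and 4 higher, where 2.13% of all genes were lower and 20.1% higher (edgeR). Their median was then 0.12, against 0.25 for all tested genes.

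Of 12 genes for ubiquitin and its enzymes 1 was called lower, a share near that of all genes. It was Uba1, the main activating enzyme, at 177 to 184 CPM in Flox and 160 to 161 CPM in HKO (log2 fold change -0.17, SE 0.05, edgeR adjusted p = 0.0329; log2 fold change 0.06 with total counts only). Uba1 did not pass when HKO 4 and HKO 5 were left out (adjusted p by edgeR of 0.102), and it passed in 1 of the 10 fits that left out 1 liver. Of the 13 genes of the MHC class I route 1 fell and 1 rose, shares near those of all genes. Calr, a chaperone of the endoplasmic reticulum, fell (log2 fold change -0.48, edgeR adjusted p = 0.0143). Ifngr1, an interferon gamma receptor chain, rose (log2 fold change 0.45, edgeR adjusted p = 0.039). It did not pass without HKO 4 and HKO 5 (edgeR adjusted p = 0.0748). Under total counts alone 0 of these 13 genes were lower and 2 higher, where 20.1% of all genes were higher (edgeR). The 2 were Ifngr1 and Ifngr2 (edgeR adjusted p = 0.0038 and 0.014), and Calr did not pass (edgeR adjusted p = 0.134).

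Of 11 cytosolic heat shock genes 0 passed by edgeR, where 6.4% of all tested genes were lower and 4.86% higher. Of the 11, 2 had an unadjusted p under 0.05 (edgeR). DESeq2 called 1 lower, Hsf1, where 1626 of all 18065 tested genes were lower. Their median log2 fold change by edgeR was -0.43, against 0.02 for all tested genes. Flox 5 had the highest level of all 10 livers in each of the 11. Hspa1b, an inducible Hsp70 chaperone, was at 183 CPM in Flox 5 and at 6.3 to 44.3 CPM in the other livers. Hsph1, a co-chaperone of Hsp70, was at 199 CPM in Flox 5 and at 34.0 to 80.3 CPM in the others. Without Flox 5 the median of the heat shock genes was -0.11 on the log2 scale and 0 passed (edgeR). Of all 18427 genes tested without Flox 5, 823 were lower and 540 higher.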

How the data were processed

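Polyadenylated RNA of 10 livers was read in pairs of 150 bp. The deposited table holds, per the file headers, whole-number counts and FPKM (counts per gene length and library size) of 31218 genes. Tools listed in the submitters' processing notes are StringTie 2.1.6, HISAT2 2.2.1, cutadapt 1.9, edgeR and DESeq2; the role of each, the genome build and the rule for counting shared or strand-marked reads are not given in the sources used here. Coordinates are those of the deposited table; all 46 members are in GENCODE M21 (GRCm38), 40 with the same start and end. Livers are numbered in accession order, and p-values measure the spread between these livers.

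Counts passing filterByExpr (18065 genes) were scaled with TMM factors and compared by edgeR's quasi-likelihood test (robust fit, version 4.0.16, R 4.3.3), two-sided, with Benjamini-Hochberg adjustment over all tested genes and a threshold of 0.05. CPM carry the TMM factors and FPKM do not. Limma 3.58.1 on log2(FPKM + 0.5) understates changes of low genes. The edgeR and DESeq2 fits were also run on counts simulated from the edgeR model with its TMM factors. The changes planted there were larger than the falls of the called members. That run therefore cannot tell how well such falls are found or which scaling is right. The genes, lists and alternatives were chosen with earlier results of these data known. Genes with a value in every liver are the catalytic and immunoproteasome subunits, Psme1, Psme2, Me1 and up to 4 members per group with the smallest p, plus Psmd8, Nfe2l1 and Ddi2; in each companion list up to 4 called genes are named. Psmd5, the per-liver values of Ddi2 and Psmd8, the heat shock genes named and the sum of Psme2 and Psme2b were added after their values were seen. Some genes of the companion lists are not reported here.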

Additional observations from a re-analysis of the deposited data

Results flagged for a closer look

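Among 112 groups of 5 livers checked, 9 held a liver far from the others, where chance flags about 1 in 20 groups. Flox 3 was high for Psmb8, at 33.6 CPM against 16.2 to 21.1 CPM in the other Flox livers. Flox 4 was high for Psmb1, at 106 CPM against 95.1 to 97.4, and for Psmd14, at 54.2 CPM against 45.1 to 47.7. HKO 4 was low for Psme1, at 51.7 CPM against 63.4 to 67.7 in the other HKO livers, and high for Psme4, at 111 CPM against 100 to 103. HKO 5 was high for Psmb2, at 45.1 CPM against 41.4 to 41.7. Psmg2 was high in Flox 1, at 10.2 CPM against 8.77 to 9.15. Me1 was high in Flox 1, at 228 CPM against 145 to 164, and in HKO 5, at 26.9 CPM against 20.5 to 22.2.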

How the results depend on the processing

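No paired analysis was possible because the labels do not pair mice across groups. The median of the proteasome genes was negative in every setting, and the count of 29 lower was 27 to 30 with other factors, filters, DESeq2 and length or GC trends removed. It was 19 (median log2 fold change -0.25) with quantile normalization, 2, 2 and 1 (medians -0.102, -0.0965 and -0.105) with limma on log2(FPKM + 0.5), (FPKM + 1) and (FPKM + 0.1), 2 (median -0.0943) with total counts only and 3 (median -0.15) with total counts and without HKO 4 and HKO 5. Dividing FPKM by the TMM factor gave 29. With 1 liver left out the count was 27 to 29 and the median -0.34 to -0.30. Psmd8 was the 1 member higher with FPKM + 0.5, FPKM + 1 and total counts. The total-count and TMM-divided FPKM settings were chosen after the data were seen.

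Of all genes, 878 higher and 1156 lower became 1566 higher with DESeq2, 3261, 3331 and 2941 higher and 377, 395 and 313 lower in the 3 FPKM settings, 3632 and 384 with total counts, 454 and 539 without HKO 4 and HKO 5, and 1418 and 269 with both changes. With 1 liver left out they were 498 to 1058 higher and 691 to 1162 lower; the higher count fell by over 1.5 times without Flox 2, Flox 4, Flox 5 or HKO 5 (537, 511, 540 and 498), and the lower count without HKO 5 (691). The share of calls that were higher was 43.2% in the main test, 49.6% with upper quartile factors, 50.6% with quantile normalization, about 90% with total counts (90.4%) and 29.9% with length and GC trends removed.

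Some genes changed the sign of their log2 fold change, with the cause not tested. In the FPKM settings with 0.5, 1 and 0.1 added these were Psme1 (0.11, 0.11 and 0.11), Psme2 (0.037, 0.036 and 0.038), Psme3 (0.12, 0.12 and 0.12), Psme4 (0.10, 0.099 and 0.11), Psmb5 (0.028, 0.028 and 0.028) and Psmd11 (0.040, 0.039 and 0.041), and further Psmd13 (0.043, 0.042 and 0.044), Psmd7 (0.10, 0.10 and 0.10), Psmf1 (0.16, 0.14 and 0.18), Uba1 (0.047, 0.046 and 0.047) and Vcp (0.041, 0.041 and 0.041). With total counts only they were Psme1 (0.12), Psme2 (0.059), Psme3 (0.13), Psme4 (0.12), Psmb5 (0.033), Psmd11 (0.052), Psmd12 (0.0024), Psmd13 (0.052), Psmd7 (0.12), Psmf1 (0.18), Uba1 (0.058), Ufd1 (0.00105) and Vcp (0.051). With total counts and without HKO 4 and HKO 5 they were Psme1 (0.12), Psme3 (0.065), Psme4 (0.026), Psma8 (-0.028), Psmb5 (0.024), Psmd11 (0.077), Psmd7 (0.034) and Psmf1 (0.18). With quantile normalization they were Psme4 (0.018), Psma8 (-0.12), Uba1 (0.0014) and Vcp (0.094). Without HKO 4 and HKO 5 they were Psma8 (-0.19) and Psmf1 (0.013). With the length trend removed they were Psmd8 (-0.00064) and Nfe2l1 (-0.019). With length and GC trends removed they were Psmd8 (-0.013) and Nfe2l1 (-0.058). With 1 liver left out, the ranges that crossed 0 were those of Psma8 (-0.14 to 0.36), Psmd8 (-0.0068 to 0.092) and Psmf1 (-0.10 to 0.018).

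Of the called companion genes, Calr and Ddi2 passed in all 10 fits with TMM factors that left out 1 liver (edgeR). Neither passed with total counts only (edgeR adjusted p = 0.134 and 0.0539). Psmg2 and Uba1 lost the call in 9 of them, Ufd1 in 8, Psmd9 and Ifngr1 in 6, Rad23b in 3 (without Flox 4, Flox 5 or HKO 3) and Zfand2b in 2 (without Flox 4 or HKO 5).

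Counts limit the rarest members: Psma8, Psmb11 and Ifng had too few reads for a fold change to be read. The causes of the other shifts were not tested.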
